A study of Mus musculus with 47 samples.

Results

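The comparison set 4 livers of Daxx Y130A/Y130A embryos against 4 livers of their wild-type littermates, which made up 8 of the 47 libraries of the series, and covered every gene that passed the count filter. Members were taken by the labelled tissue and genotype, and each of 4 litters (numbered 2848, 2851, 2974 and 3069 in the labels) gave 1 mutant and 1 wild-type embryo, so that the 8 livers came from 8 separate embryos. The series measured total RNA from whole livers, lungs and brains of E18.5 mouse embryos in homozygous Daxx Y130A embryos, homozygous Daxx S226A embryos and the wild-type littermates of each. All embryos were labelled C57BL/6. The Y130A allele was made by genome editing in C57BL/6N zygotes, carried added silent changes against recutting, was backcrossed to C57BL/6J, and was studied here in embryos of heterozygous parents. Whole liver was sequenced, so that a lower count can be fewer cells of a type or less RNA per cell, and these cannot be told apart.

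Daxx is a histone chaperone that carries the histone variant H3.3. With its partner Atrx, a chromatin remodeler, it places H3.3 at heterochromatin and repeats, where it takes part in silencing, and the Y130A change was designed to break the contact between Daxx and Atrx while leaving H3.3 binding in place. The S226A change was designed to break the contact with H3.3. Fetal liver holds hepatocytes together with blood-forming cells, since it is the main site of blood formation before birth.

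The changed residue is encoded in exon 3 of 8 of Daxx on the plus strand of mouse chromosome 17. The wild-type coding sequence around codon 130 is shown because it is the sequence that separates the genotypes (GRCm38, chr17:33911355-33911447, from the GENCODE M21 transcript Daxx-201). Capitals mark the tyrosine codon that the mutation turns into an alanine codon, at chr17:33911400-33911402.
Daxx codon 130, wild type: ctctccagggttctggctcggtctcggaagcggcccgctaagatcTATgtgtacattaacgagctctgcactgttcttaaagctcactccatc

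Reads counted per gene cannot show the codon itself, so the level of Daxx says only whether the mutant allele was expressed. Daxx had 1289, 1120, 1103 and 1096 normalized counts in the Y130A livers of litters 2848, 2851, 2974 and 3069, the order kept for every set of 4 values here, and 1020.1, 1124, 1115 and 1292 in the wild-type livers. A normalized count is a read count divided by the library's TMM-scaled total and multiplied by the geometric mean of these totals over all 47 libraries. The groups overlapped, and the log2 fold change of 0.02 (SE 0.09, adjusted p = 1) turned to -0.04 without the Y130A liver of litter 2848. None of the 23 genes of the Daxx, Atrx and H3.3 chaperone list passed an adjusted p of 0.05, and their median log2 fold change was -0.02 beside 0 over all genes tested. Atrx stood at 8109.5, 8229, 7438 and 7714 in the mutants and at 8116, 8105, 7750.1 and 8021 in the wild types, again with overlap. Suv39h2, a histone H3 lysine 9 methyltransferase, was the member with an unadjusted p below 0.05, at 264, 258, 439 and 253 against 215, 219.7, 158 and 198 (log2 fold change 0.62, adjusted p = 0.241).

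Total counts of the 8 livers were between 37920101 and 54885020 reads. Littermates had the same sex by 4 Y-linked genes in 4 of 4 litters. Albumin, the main secreted protein of hepatocytes, was at 3999330, 4342250, 4075470 and 4207120 in the mutants and 3698730, 4265270, 3793020 and 3791490 in the wild types, and no member of the hepatocyte list was at 0 in any liver. The Y130A liver of litter 2848 stood apart by transcripts of squamous epithelium, the layered lining of skin, mouth and esophagus, and the standard calls lost without it are named where this list is described or beside the gene.

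In the Y130A livers a small set of genes was higher, among them the red cell enzyme gene Car1, the sodium pump subunit gene Atp1b3, the adhesion genes Kirrel2 and Pcdh11x and the glutamate receptor gene Gria4. Of 16892 genes tested, 13 passed the stringent criteria (adjusted p below 0.01, log2 fold change beyond 1 and its standard error below 1) with a higher level in the mutant, which is 0.077% of the genes tested, and 0 passed with a lower level, where 738 genes were lower at an unadjusted p below 0.05. These 13 are called DEGs from here on. Wild-type liver held 11 of them at 0.01 to 1.11 RPKM (reads per kilobase of exon, scaled to library size), the others being Car1 and Atp1b3. Adjusted p-values are from edgeR's quasi-likelihood test with Benjamini-Hochberg adjustment over all genes tested. With an adjusted p below 0.05 and no limit on the fold change, 46 genes passed (0.272%), of which 35 were higher (0.207%) and 11 lower (0.0651%), beside 9.22% of genes at an unadjusted p below 0.05. At that unadjusted p 4.85% of all genes tested were higher and 4.37% lower, which are the shares to set beside the list counts below.

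The counts of DEGs moved with the model, the libraries fitted and the tool. With litter as a replicate block the count rose to 34 DEGs (0.201% of the genes tested, 27 higher and 7 lower) and to 98 at the standard criterion (0.58%). The block added 22 DEGs, of which 14 had passed the standard criterion without it, namely Ccdc60, Ccdc78, Cdh12, Celf4, Cyp2c40, Daw1, En2, Fam107a, Gabra3, Irx2, Mme, Nwd2, Rflna and Syt10. The 8 livers fitted alone gave 2 DEGs, Car1 and Atp1b3, and DESeq2 on the same 8 livers gave 13 (0.0746%), of which 9 were shared. Without the squamous-positive Y130A liver of litter 2848 there were 16 DEGs (0.095%) and 54 standard calls (0.321%), 11 of the 13 passed again, and the other 2, Csmd3 and Zc4h2, kept an adjusted p below 0.05. With the same liver left out and litter as block there were 12 DEGs (0.0713%) and 59 standard calls (0.35%), of which 28 were higher and 31 lower, beside 73 and 25 with the block and all livers. In that fit 8 of the 13 remained DEGs and 3 lost the standard criterion, with adjusted p-values of 0.0528 for Csmd3, 0.0727 for Zc4h2 and 0.0577 for Nat14. Leaving out the wild-type liver of litter 2848 gave 9 DEGs and took out Cnpy1, Csmd3, Nat14 and Zc4h2.

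**Figure D1:**
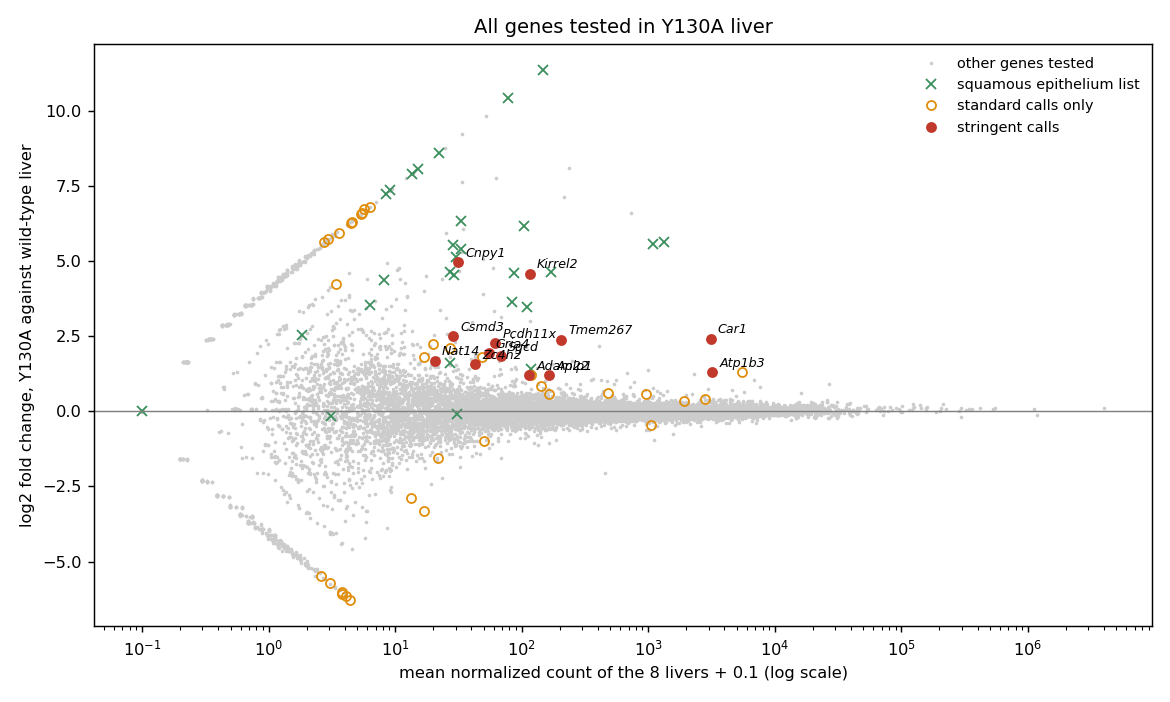
Each point is 1 gene tested, with the mean normalized count of the 8 livers plus 0.1 on the x axis (log scale) and the fitted log2 fold change, Y130A against wild type, on the y axis. The 13 DEGs (red) all lie above 0, the genes that passed the standard criterion alone (orange rings) lie on both sides, and most squamous epithelium genes (green crosses), with a median of 4.89, were raised in 1 liver and passed neither criterion.

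Car1 had the second smallest adjusted p. It encodes carbonic anhydrase 1, a cytosolic enzyme of red cells that interconverts carbon dioxide and bicarbonate, and lies at chr3:14766216-14808368 (GRCm38, minus strand, as for all gene positions here GENCODE M21). Its normalized counts were 5832, 4711, 4489.5 and 5874 in the Y130A livers and 1103, 905, 898 and 1029.8 in the wild-type livers. All mutant livers lay far above all wild-type livers, with little spread within either group. The means were 5227 ± 729 against 984 ± 99.6 (SD, n = 4), log2 fold change 2.41 (SE 0.27, adjusted p = 4.41e-07), and the call held in each of the 8 fits that left out 1 liver. Per length, the mutants had 142 RPKM and the wild types 26.7 RPKM.

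Of 15 carbonic anhydrases tested, Car1 was the 1 that passed the standard criterion, 2 were lower at an unadjusted p below 0.05, and their median was 0.11. Car2, the more abundant red cell isoform at 660 RPKM in mutant liver, had 49988, 49839, 43727 and 45420.5 normalized counts in the mutants and 52709, 46883, 40908 and 34969.6 in the wild types, which overlapped (log2 fold change 0.11 (SE 0.12, adjusted p = 0.912)). Its neighbor Car3 had 935, 1638, 2119 and 832 in the mutants and 873, 866, 808 and 649.6 in the wild types (log2 fold change 0.79 (SE 0.41, adjusted p = 0.601)). Each mutant was above its littermate, and the highest values were in the male mutant livers of litters 2851 and 2974. On the list of 20 globin and erythroid genes tested none passed, the median was 0.02, and the summed level ran from 1064910 to 1176800 in mutant livers and from 897244 to 1242320 in wild-type livers. The sum overlapped between genotypes and was higher in the mutant in 3 of 4 litters.

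Atp1b3 had the smallest adjusted p of all genes tested. It encodes the beta-3 subunit of the Na,K-ATPase, the sodium pump of the cell membrane (chr9:96332655-96364442, minus strand). Its levels were 4658, 4736, 4251 and 4628 in the Y130A livers and 1849, 2159.8, 1659 and 1711 in the wild-type livers. The 4 mutants fell within a narrow range, well above the highest wild type. The log2 fold change was 1.31 (SE 0.10, adjusted p = 8.71e-12), and Atp1b3, Car1 and Kirrel2 were the DEGs that passed the standard criterion in each of the 19 alternatives. Atp1b3 was the 1 of 14 Na,K-ATPase and related subunit genes that passed, and the median log2 fold change of the list was -0.23. The other beta subunits had log2 fold changes of -0.12 for Atp1b1 (adjusted p = 0.761) and of -0.25 for Atp1b2 (adjusted p = 0.939).

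A pair of DEGs lay side by side on chromosome 7, with their annotated starts 12.2 kb apart. Kirrel2 (chr7:30447534-30457690, minus strand) encodes an adhesion protein of the nephrin family with immunoglobulin domains. Its levels were 188, 186, 303 and 214 in the mutants and 17.9, 0, 16.4 and 3.08 in the wild types. Wild-type livers were at or near 0, and the lowest mutant was far above the highest of them. The log2 fold change was 4.57 (SE 0.74, adjusted p = 0.000677). Aplp1 (chr7:30434982-30445535, minus strand) encodes an amyloid precursor-like membrane protein of neurons. It had 186, 221, 275 and 234 in the mutants and 72.5, 119, 84.1 and 121 in the wild types. The groups were separate, although closer than for Kirrel2 (log2 fold change 1.20 (SE 0.17, adjusted p = 3.12e-05)). Within their families both stood alone, as Kirrel2 was the 1 of 4 nephrin family genes that passed and Aplp1 the 1 of 3 amyloid precursor family genes. The relatives App and Aplp2 had log2 fold changes of -0.04 and -0.01, and Kirrel had -0.11. Kirrel3, with at most 6.15 normalized counts in any liver, had -2.90 (SE 1.57, adjusted p = 0.624). Nphs1, which encodes nephrin and starts next to Kirrel2 on the other strand, had counts in 1 liver of each genotype.

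The promoters of both genes are shown because they lie in 1 short stretch of chromosome and the genes rose together, and that of Atp1b3 because it had the smallest adjusted p. Each is the 250 bases before the RefSeq start (GRCm38.p6, read 5′ to 3′ on the minus strand), with every CG pair, the site of DNA methylation, in capitals. RefSeq and GENCODE starts differ, and the RefSeq start of Kirrel2 lies inside the gene as GENCODE draws it, so that most of its stretch does too.
Kirrel2, chr7:30457516-30457765: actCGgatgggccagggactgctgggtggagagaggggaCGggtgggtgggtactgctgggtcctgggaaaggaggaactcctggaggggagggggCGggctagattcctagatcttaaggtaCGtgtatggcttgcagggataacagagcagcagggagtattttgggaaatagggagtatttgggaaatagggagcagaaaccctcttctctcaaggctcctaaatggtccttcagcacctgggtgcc
Aplp1, chr7:30445583-30445832: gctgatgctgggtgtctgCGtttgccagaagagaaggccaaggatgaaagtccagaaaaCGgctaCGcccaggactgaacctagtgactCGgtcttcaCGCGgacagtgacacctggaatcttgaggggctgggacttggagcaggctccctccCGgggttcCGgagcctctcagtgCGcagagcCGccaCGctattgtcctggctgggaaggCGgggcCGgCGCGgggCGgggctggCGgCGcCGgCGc
Atp1b3, chr9:96364432-96364681: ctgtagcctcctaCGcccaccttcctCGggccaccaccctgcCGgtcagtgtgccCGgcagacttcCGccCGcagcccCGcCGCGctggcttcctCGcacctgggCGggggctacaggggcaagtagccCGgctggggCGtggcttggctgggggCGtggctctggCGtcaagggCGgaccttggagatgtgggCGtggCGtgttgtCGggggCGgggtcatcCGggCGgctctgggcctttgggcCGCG

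The Kirrel2 promoter held 4 CG pairs, and 62.2% of the 32851 RefSeq promoters of this length held as many or more. The Aplp1 promoter held 20 (17.9% of promoters) and that of Atp1b3, at the outer of its listed starts, held 24 (12% of promoters), where the median promoter held 6. The DEGs that moved together thus had promoters of unlike CG content, and no methylation was measured here. Of the 13 DEGs, 10 had an entry in the RefSeq promoter table, with Car1, Csmd3 and Pcdh11x the others.

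Gria4 (chr9:4417896-4796234, minus strand) encodes a subunit of the AMPA receptor for glutamate. It had 89.8, 88.9, 60.7 and 108 in the mutants and 18.8, 32.95, 18.46 and 19.5 in the wild types. The groups were separate, and the wild-type liver of litter 2851 lay above its group (log2 fold change 1.92 (SE 0.25, adjusted p = 1.11e-05)). Of the 15 AMPA, kainate and NMDA receptor subunits tested, Gria4 was the 1 that passed, 3 were lower at an unadjusted p below 0.05, and the median was -0.21. The AMPA receptor partner Gria3 had 450, 519, 386 and 492 in the mutants and 345, 486, 389.7 and 528 in the wild types, with overlap (log2 fold change 0.08, adjusted p = 0.947).

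Pcdh11x (chrX:120290259-120910619, plus strand) encodes an X-linked adhesion protein of the delta protocadherins. Its levels were 116, 88.9, 70.2 and 137 in the mutants and 10.7, 35.3, 20.5 and 17.5 in the wild types. The mutants lay above the wild types in every litter, and the female litters, 2848 and 3069, held the highest mutant values and the lowest wild-type values. The log2 fold change was 2.26 (SE 0.35, adjusted p = 0.000213). Of 9 delta protocadherins tested, 2 passed the standard criterion as higher (3 with the litter block) and 5 were higher at an unadjusted p below 0.05. Of all genes tested, 0.207% and 4.85% were higher at these levels without the block. The list median was 0.68 beside 0 over all genes tested. The other call, Pcdh9, had 263, 163, 113 and 189.7 in the mutants and 92.3, 102, 124 and 94.6 in the wild types, with overlap in litter 2974 (log2 fold change 0.83 (SE 0.19, adjusted p = 0.0429)), and its adjusted p was 0.221 without the Y130A liver of litter 2848.

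Adam22 (chr5:8072352-8368160, minus strand) encodes a membrane protein of synapses that binds the secreted protein Lgi1. It had 166, 137, 213 and 121 in the mutants and 54.6, 74.5, 79.99 and 68.9 in the wild types, without overlap (log2 fold change 1.19 (SE 0.18, adjusted p = 0.000123)). Csmd3 (chr15:47580637-48792063, minus strand), a very long gene for a membrane protein of the nervous system, had 55.8, 18.98, 42.9 and 76.1 in the mutants and 9.85, 4.71, 20.5 and 0 in the wild types. It was the 1 DEG whose groups overlapped, since the mutant of litter 2851 lay below the wild type of litter 2974, yet each mutant lay above its own littermate. The log2 fold change was 2.50 (SE 0.45, adjusted p = 0.00257). It missed the stringent criteria without either liver of litter 2848 or 3069 or the wild type of litter 2851, and its adjusted p was 0.0123 without the Y130A liver of litter 2848. With the 8 livers fitted alone the adjusted p of Csmd3 was 0.999 by edgeR and 0.328 by DESeq2.

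Cnpy1 was read in every mutant liver and in 1 wild-type liver. It encodes a regulator of fibroblast growth factor signaling (chr5:28200819-28245806, minus strand). The Y130A livers had 75.01, 53.95, 52.4 and 60.7 and the wild-type livers had 7.17, 0, 0 and 0. All mutants were at a like level, and the wild-type reads were in litter 2848. The fitted log2 fold change of 4.96 (SE 0.75, adjusted p = 0.00015) rests on a wild-type mean of 1.79 ± 3.58 (SD, n = 4), so that its size is not well set. En2, a homeobox gene of the midbrain and cerebellum that starts 80.1 kb from Cnpy1, had 20.1, 11.99, 0 and 17.3 in the mutants and no read in the wild types. It was at least 4.41-fold higher, with a floor of 3 reads per wild-type library (adjusted p = 0.0198, and 0.00206 with the litter block).

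Sgcd, Tmem267, Nat14 and Zc4h2 completed the DEGs. Sgcd (chr11:46896253-47988969, minus strand) encodes delta-sarcoglycan, a membrane protein of the dystrophin complex, and had 109.9, 99.9, 134 and 81.8 in the mutants and 21.5, 36.9, 30.8 and 28.8 in the wild types. Every mutant liver was above every wild-type liver by a wide margin (log2 fold change 1.84 (SE 0.24, adjusted p = 1.11e-05)). Tmem267 (chr13:119488039-119611059, plus strand), a gene for a predicted membrane protein, had 297, 345, 409 and 321 in the mutants and 117, 17.3, 87.2 and 42.1 in the wild types. Its mutant values were close together while its wild-type values were spread widely (log2 fold change 2.38 (SE 0.43, adjusted p = 0.00226)), and its adjusted p passed 0.01 without the wild-type liver of litter 2851 or that of litter 3069, where the highest was 0.0164.

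Nat14 (chr7:4922028-4925006, plus strand), named as an N-acetyltransferase, had 30.5, 33.97, 20.9 and 39.5 in the mutants and 9.85, 10.2, 15.4 and 3.08 in the wild types. The groups were separate at a low level, with the smallest gap within litter 2974 (log2 fold change 1.68 (SE 0.30, adjusted p = 0.00226)). It was the 1 DEG that the litter block took out of the stringent criteria, at an adjusted p of 0.0145. It also missed them without either liver of litter 3069 or the wild-type liver of litter 2848 (highest adjusted p among these fits 0.0161). Those fits still held the lungs and brains. On the 8 livers alone the adjusted p of Nat14 was 0.999 by edgeR and 0.789 by DESeq2. Zc4h2 (chrX:95639193-95658509, minus strand), an X-linked zinc finger gene of neural development, had 106, 37.97, 55.5 and 56.8 in the mutants and 16.1, 32.2, 13.3 and 24.7 in the wild types. The squamous-positive mutant of litter 2848 was the highest, and the littermates of 2851 were close (log2 fold change 1.56 (SE 0.26, adjusted p = 0.000933)). Without that mutant the log2 fold change was 1.19 and the adjusted p 0.0226, and the stringent criteria were also missed without the wild-type liver of litter 2848 or 2974.

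For 12 of the 13 DEGs all mutant livers lay above all wild-type livers, a pattern that 1.16% of the genes tested had in this direction. The DEGs were chosen on these same livers, which favors this pattern, so it is no added evidence. Adam22, Aplp1, Atp1b3, Car1, Gria4, Kirrel2, Pcdh11x and Sgcd remained DEGs in all 8 fits that left out 1 liver. Those fits kept the lungs and brains, which share in the estimate of spread. With the 8 livers fitted alone, 3 of the 13 DEGs (Atp1b3, Car1 and Kirrel2) kept an adjusted p below 0.05. There it was 0.398 for Adam22, 0.163 for Aplp1 and for Gria4, and 0.136 for Sgcd.

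**Figure D2:**
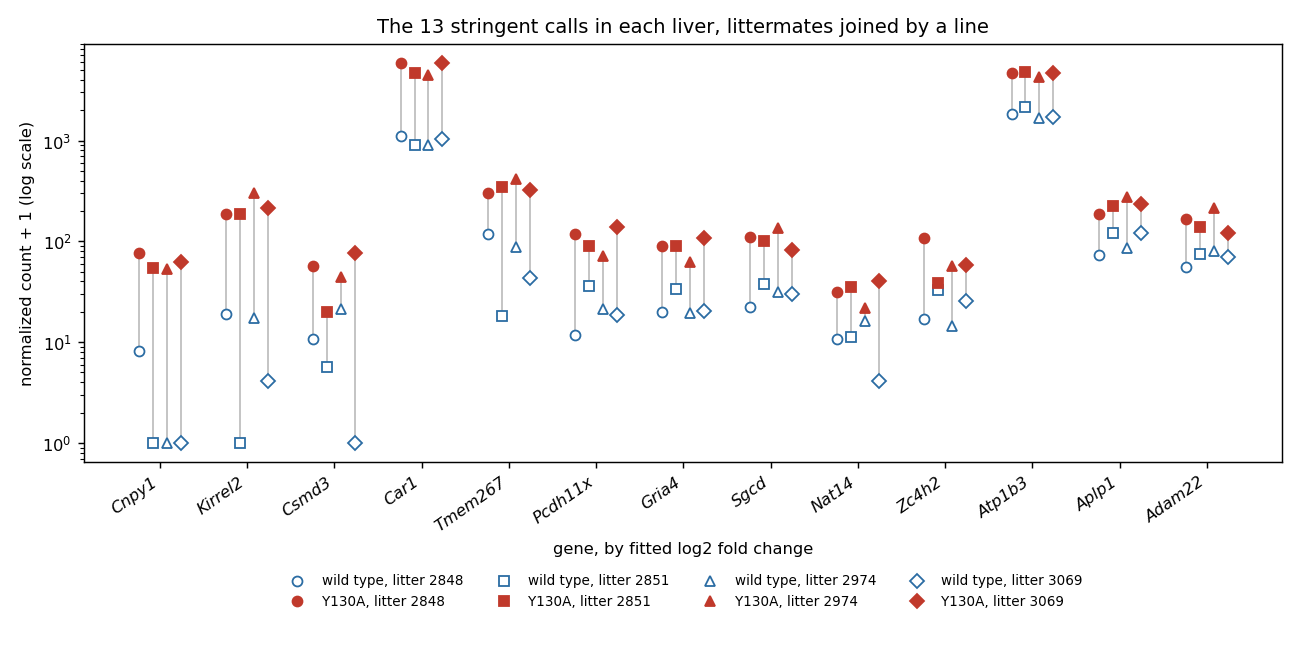
The normalized count plus 1 (y axis, log scale) of each of the 13 DEGs (x axis, by fitted log2 fold change) in each liver, with littermates joined by a line, filled red for Y130A and open blue for wild type. The mutant liver is the higher of each littermate pair for each DEG, and Csmd3 is the 1 gene for which the genotypes overlap.

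A further 22 genes were higher at the standard criterion alone. Over the 35 higher genes, 27 had the mutant above its littermate in 4 of 4 litters, a sign pattern in either direction that 12.8% of all genes tested had, and 22 had groups that did not overlap. Of the 33 genes, higher or lower, that passed this criterion alone, 4 (H2-M5, Ccdc78, Sesn1 and Rflna) passed it in each of the 8 fits that left out 1 liver, and the losses were most frequent without the wild-type liver of litter 2848, where 26 of the 46 calls were lost, and that of litter 2974, where 20 were. In 9 of the 35 higher genes no wild-type liver had a read, so that their fold is a lower bound. H2-M5, a class Ib histocompatibility gene, had 19.2, 5.00, 12.6 and 5.78 in the mutants against no read in wild type. Each mutant liver had it, and it was at least 3.80-fold higher (adjusted p = 0.00143). Nxph1, which encodes the neurexin ligand neurexophilin 1, had 13.1, 3.00, 17.8 and 0.963 and was at least 3.11-fold higher (adjusted p = 0.03, and 0.0746 without the squamous-positive liver). The homeobox gene Irx2, by contrast, had 40.1, 0, 0 and 4.81, so that 1 squamous-positive liver held nearly all of it, and its adjusted p was 0.0485 with and 0.535 without that liver.

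The other genes with no wild-type read were Nwd2, Zfp872, Ccdc78, Syt10 and Ccdc60, with bounds between 1.89-fold (Ccdc60) and 3.83-fold (Nwd2) higher. Ccdc78, which takes part in making centrioles, had 0, 15.99, 7.33 and 4.81 and was absent from the squamous-positive liver. Its adjusted p moved from 0.00385 to 6.4e-05 without that liver. Ccdc60 and Syt10 moved the other way, to 0.458 and 0.175. Zfp872 had an adjusted p of 0.0643 with the litter block.

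Among those with wild-type reads, Gabra3, an X-linked subunit of the GABA-A receptor, had 109, 51.96, 76.4 and 65.5 in the mutants and 17.02, 29.8, 15.4 and 23.6 in the wild types. The groups were separate (log2 fold change 1.80 (SE 0.37, adjusted p = 0.013)), and the adjusted p was 0.0625 without the Y130A liver of litter 2848. Gabra3 was the 1 of 17 GABA-A subunits that passed, with a list median of 0.50 and summed levels of 134 to 223 in mutant and 64.6 to 99.6 in wild-type livers. Gabra3 itself is part of these sums, and 9 of the 17 subunits had a log2 fold change above 0. Cdh12, a cadherin, had 3.49, 8.99, 10.5 and 2.89 in the mutants and 1 read in all in the wild types, a ratio of 27.2 with a 95% counting interval from 4.48 to 1117 (adjusted p = 0.0144). Wnt7b, a Wnt ligand, had 63.7, 31.97, 12.6 and 25.03 in the mutants and 4.48, 17.3, 2.05 and 2.06 in the wild types, with overlap (log2 fold change 2.25 (SE 0.49, adjusted p = 0.0268)). Its value was highest in the squamous-positive liver, and its adjusted p was 0.17 without it.

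Of 35 genes of synaptic vesicles and exocytosis, 2 were higher (Amph and Syt10) and 1 lower (Snph), with a median of -0.06. With the litter block Snph was lost and Pacsin1 and Unc13c were lower (adjusted p = 0.00782 and 0.0167), and without the Y130A liver of litter 2848 none was higher and Pacsin1 was lower (adjusted p = 0.0418). At an unadjusted p below 0.05, 3 were higher and 12 lower, where 4.85% and 4.37% of all genes tested were. Their summed level was lower in the mutant in each litter and did not overlap, at 6248 to 6856 in mutant and 6968 to 7364 in wild-type livers. Amph encodes the endocytic protein amphiphysin. It had 32.3, 27.98, 12.6 and 32.7 in the mutants and 0.896, 18.8, 4.10 and 4.11 in the wild types. The groups overlapped, since the lowest mutant lay below the wild type of litter 2851. Each mutant lay above its own littermate (log2 fold change 1.81 (SE 0.40, adjusted p = 0.03)). Without the Y130A liver of litter 2848 the adjusted p of Amph was 0.0796. On a list of 18 genes of neurons and glia 0 passed (2 with the litter block), where 3 were higher at an unadjusted p below 0.05 and the median was 0. The summed level of that list was 598 to 768 in mutant livers and 714 to 872 in wild-type livers, and Elavl3, a pan-neuronal marker, was found in both livers of litter 2848, at 4.36 in the mutant and 15.2 in the wild type, and was at 0 in the other 6 livers. The sum was higher in the mutant in litter 2848 (768 against 714) and lower in the mutant in the other 3 litters.

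Sesn1, which encodes the stress sensor sestrin 1 and is a target of p53, had 3059, 3362, 3130.2 and 3226 in the mutants and 2242, 2778, 2203 and 2387 in the wild types. The groups were separate, with means of 3194 ± 131 against 2402 ± 263 (SD, n = 4) and log2 fold change 0.41 (SE 0.07, adjusted p = 0.00179). It was the 1 of 18 p53 target genes that passed, with a list median of 0.06, and Cdkn1a, a main target, had 555, 584, 602 and 687 against 350.2, 646, 684 and 855, with overlap (log2 fold change -0.06). Srpk2, a kinase of splicing factors, had 2063, 2212, 1872 and 2384 in the mutants and 1626, 1720.5, 1733 and 1675 in the wild types (log2 fold change 0.34 (SE 0.08, adjusted p = 0.0429), and 0.096 with the litter block). Cyp2j6, Magee1 and 2010315B03Rik, at 7.26, 1.25 and 3.27 RPKM in wild-type liver, were higher by 0.56, 0.56 and 0.62 on the log2 scale. Sntg1 and Gm45844, at 0.222 and 0.0523 RPKM, were higher by 1.22 and 2.10.

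Cytochrome P450 genes of the Cyp2c family, which encode enzymes of steroid, fatty acid and drug oxidation in hepatocytes, were higher in the sum of the family. Cyp2c40 had 5876, 8046, 9681 and 7597 in the mutants and 1881, 3839.5, 3148 and 3834 in the wild types. The lowest value of each genotype was in litter 2848, and the groups did not overlap (log2 fold change 1.30 (SE 0.30, adjusted p = 0.0374)). With 1 liver left out its adjusted p ran from 0.0288 to 0.129. Of the 8 Cyp2c genes tested 1 passed as higher and 4 were higher at an unadjusted p below 0.05, where 0.207% and 4.85% of all genes tested were. All 8 were above 0 with a median of 0.98. The family summed to 58289 to 61859 in mutant livers and to 38471 to 49288 in wild-type livers. Cyp2c67 had 325, 419.6, 600.1 and 549.8 in the mutants and 118, 174, 184 and 217 in the wild types, without overlap, but an adjusted p of 0.19, which became 0.0422 with the litter block. DESeq2 on the 8 livers put both in its 13 calls. Cyp2c genes are near copies of one another, so that reads may have been divided between them. On the hepatocyte list 0 of 24 genes passed, 1 was higher at an unadjusted p below 0.05, and 19 were above 0 with a median of 0.08.

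Of the 11 genes that were lower at the standard criterion, 6 had no read in any mutant liver and 5 were measured in both genotypes. Igf2bp2, which encodes a fetal RNA-binding protein that binds Igf2 mRNA, had 825, 882, 821 and 987 in the mutants and 1234, 989, 1261 and 1367 in the wild types. The groups did not overlap (log2 fold change -0.46 (SE 0.10, adjusted p = 0.0252)). Pcdhb22, a clustered protocadherin, had 34.9, 46.96, 13.6 and 39.5 in the mutants and 77.03, 73.7, 53.3 and 64.8 in the wild types (log2 fold change -0.99 (SE 0.23, adjusted p = 0.0485)). Celf4, an RNA-binding protein of neurons, had 16.6, 12.99, 7.33 and 5.78 in the mutants and 33.1, 21.97, 57.4 and 17.5 in the wild types. Both were separate between genotypes, with Celf4 at log2 fold change -1.55 (SE 0.34, adjusted p = 0.0252). Fam107a fell by 2.88 on the log2 scale (adjusted p = 0.0374), whereas the fall of Mme, the peptidase neprilysin, came from high values in the wild types of litters 2848 and 2851, with 2.62, 5.99, 0 and 3.85 in the mutants and 87.8, 35.3, 0 and 0 in the wild types (adjusted p = 0.0485). Without both livers of litter 2848 the adjusted p of Mme was 0.562, and without the mutant alone those of Igf2bp2 and Pcdhb22 were 0.0684 and 0.0785.

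The 6 genes without a mutant read had few wild-type reads. Snph, which encodes the axonal mitochondrial anchor syntaphilin, had 9.85, 8.63, 8.20 and 3.08 in the wild types and was at least 2.56-fold lower. Duxbl1, a double homeobox gene, had 12.5, 3.14, 6.15 and 10.3 and was at least 2.76-fold lower. For both, each wild-type liver had reads and no mutant liver had any. Rflna, Togaram2, 6430531B16Rik and Daw1, a factor for assembly of ciliary dynein, had bounds between 1.72-fold (Daw1) and 2.94-fold (Rflna) lower, each with 1 wild-type liver at 0. With the litter block, Snph and 6430531B16Rik had adjusted p-values of 0.0844 and 0.0693. Daw1 was the 1 of 31 motile cilia genes that was lower (2 with the block), 7 were lower and 2 higher at an unadjusted p below 0.05, and the list median was -0.04.

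The study lists 11 genes as higher in both Daxx mutants, a list chosen on these samples and so not independent evidence of direction. Of the 11, 7 were DEGs here, 8 passed the standard criterion, and the median log2 fold change was 2.38. The 3 that did not pass were Gm21887, Ctsw and Ccdc85a. Gm21887 had 174, 97.9, 194 and 369 in the mutants and 41.2, 21.2, 19.5 and 21.6 in the wild types. All mutants were above all wild types, yet the adjusted p was 0.0623, against 0.0214 with the litter block and 2.11e-09 by DESeq2 on the 8 livers. Ctsw, a lymphocyte cathepsin, had 12.2, 10.99, 9.43 and 18.3 in the mutants and 0, 2.35, 0 and 1.03 in the wild types, without overlap (adjusted p = 0.0701).

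The S226A livers, from other litters and with their own wild-type littermates, share no library with this comparison and gave a test of which DEGs differed between the alleles. In S226A liver, 12 of the 13 DEGs of Y130A liver had a log2 fold change above 0, 8 were higher at an adjusted p below 0.05 (6.14% of all genes tested were), and the median was 1.28 beside 1.92 in Y130A liver. Kirrel2, Atp1b3, Tmem267, Gria4, Csmd3, Pcdh11x and Aplp1, which are on the list of 11, had S226A log2 fold changes between 1.25 (Atp1b3) and 3.91 (Kirrel2). The eighth was Car1, at 1.28 (SE 0.27), and its difference between alleles had an adjusted p of 0.0618.

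The difference between alleles passed an adjusted p of 0.05 for 3 of the 13 DEGs, where 5.9% of all genes tested passed. Nat14 was at 1.68 in Y130A and -0.63 in S226A liver (adjusted p of the difference 0.000492). Sgcd was at 1.84 and 0.40 (0.0111), and Zc4h2 at 1.56 and 0.23 (0.03). The DEGs were chosen for a rise in Y130A liver, which favors the larger change there. The count was 1 without the wild-type liver of litter 2848, 1 without both livers of litter 2848, 1 with the 16 livers alone and 14 with the litter block, each over the DEGs of that fit, and 0 with the block and without the Y130A liver of litter 2848. For Cnpy1, at 4.96 and 0.53 (SE 1.59), the difference had an adjusted p of 0.271, and for Adam22, at 1.19 and 0.47, of 0.127. Among the genes of the standard criterion, Togaram2 had no mutant read in Y130A liver but a log2 fold change of 4.18 in S226A liver (adjusted p of the difference 2.6e-05).

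Lungs and brains of the same Y130A litters showed which DEGs were raised beyond the liver. The lung comparison had 4 mutants against 3 wild types, with no wild-type lung of litter 3069, and the brain comparison 4 against 4. In lung 9 of the 13 were above 0 and 2 passed an adjusted p of 0.05 (0.0118% of all genes tested were higher), with a median of 0.24. In brain 11 were above 0 and 1 passed (0.00592%), with a median of 0.13. Tmem267 was the gene higher in all 3 tissues, by 2.38 in liver, 2.57 in lung (adjusted p = 0.0249) and 2.40 in brain (adjusted p = 0.0101). Car1 was higher by 2.98 in lung (adjusted p = 0.0452), where its wild-type level was 3.08 beside 984 in liver. A difference between liver and lung passed for 6 DEGs (0.0651% of all genes tested) and one between liver and brain for 8 (0.0829%). Atp1b3 was at 0.24 in lung and 0.06 in brain (adjusted p of the differences 9.02e-05 and 7.16e-07). Gria4 was at 0.12 in brain (0.00292) and Aplp1 at -0.07 (0.00292). The tissues come from the same embryos, so that these fits treat paired libraries as separate.

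**Figure D3:**
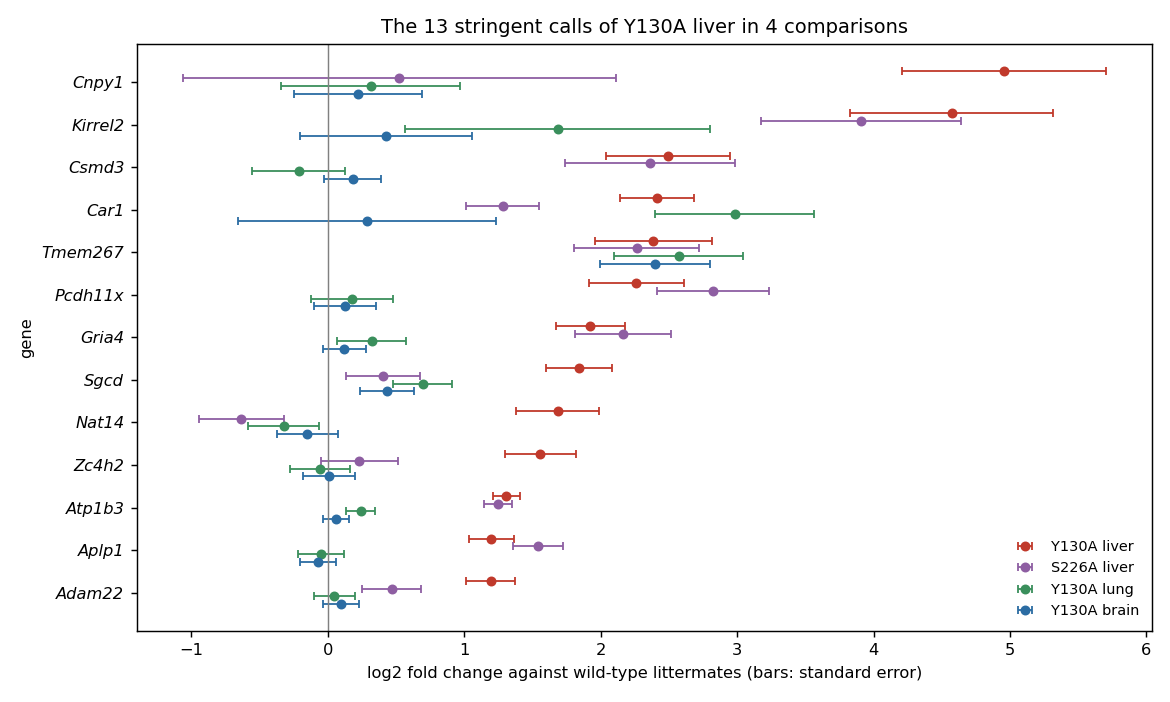
Fitted log2 fold changes against wild-type littermates (x axis, points) with their standard errors (bars) for the 13 DEGs of Y130A liver (y axis) in Y130A liver, S226A liver, Y130A lung and Y130A brain. Tmem267 lies between 2.26 and 2.57 in all 4 comparisons, Atp1b3, Aplp1, Gria4 and Pcdh11x are raised in both livers and near 0 in lung and brain, and Nat14 is below 0 everywhere but in Y130A liver.

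Most DEGs were genes that wild-type brain holds at a far higher level than wild-type liver. Of the 13 DEGs, 9 (69.2%) had a mean more than 10 times higher in wild-type brain than in wild-type liver, as did 23 of the 35 higher genes (65.7%) and 4 of the 11 lower genes (36.4%), beside 13.2% of all genes tested, where a liver mean under 3 reads per library was set to that floor. The count filter used all 47 libraries, so that a gene nearly absent from liver could enter through its level in brain or lung, which bears on this share. On the 8 livers alone the filter kept 14312 of the genes tested, 6.9% of them more than 10 times higher in brain. It kept all 13 DEGs and 25 of the 35 higher genes, and 15 of these 25 were more than 10 times higher in brain, as were 2 of the 4 lower genes that it kept. The raised level in mutant liver remained a small share of that in brain for Csmd3 (0.957%), Gria4 (1.75%), Pcdh11x (2.83%) and Aplp1 (2.86%). For Cnpy1 it was 21.5% and for Sgcd 30.0%. Kirrel2 differed, as mutant liver held 222 ± 54.98 against 28.8 ± 16.6 in wild-type brain (SD, n = 4 each), which is 774% of the brain level. Of the 13 DEGs, 6 (46.2%) spanned more than 100 kb, beside 14.2% of all genes tested, and the median span was 44.99 kb beside 23.5 kb. These shares were read on the genes called and carry no test.

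The genes around the DEGs were examined to see whether neighbors moved with them. Within 500 kb of the DEGs, 11 of which had a tested neighbor, 132 genes other than the DEGs were tested, of which 13 (9.85%) were higher and 2 (1.52%) lower at an unadjusted p below 0.05, where 4.85% and 4.37% of all genes tested were. En2 beside Cnpy1 was the 1 that passed the standard criterion. The 13 included Krtdap, Dmkn and Sbsn, squamous epithelium genes near Kirrel2 and Aplp1, whose counts came from the Y130A liver of litter 2848 (1177, 1299 and 487 there, and at most 90.4 in the other 7 livers). Around Tmem267 4 of 8 neighbors were higher at an unadjusted p below 0.05, and none passed the standard criterion. Among its neighbors, 3110070M22Rik, which starts 0.344 kb from Tmem267, had 14.8, 22.98, 33.5 and 21.2 in the mutants and 3.58, 11.8, 15.4 and 0 in the wild types. The strand setting of the counting is not given in the sources used here, so that reads of overlapping genes cannot be told apart. Around Car1, Car13, Car3 and Car2 did not pass, and around Atp1b3 0 of 7 neighbors were higher or lower at an unadjusted p below 0.05.

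**Figure D4:**
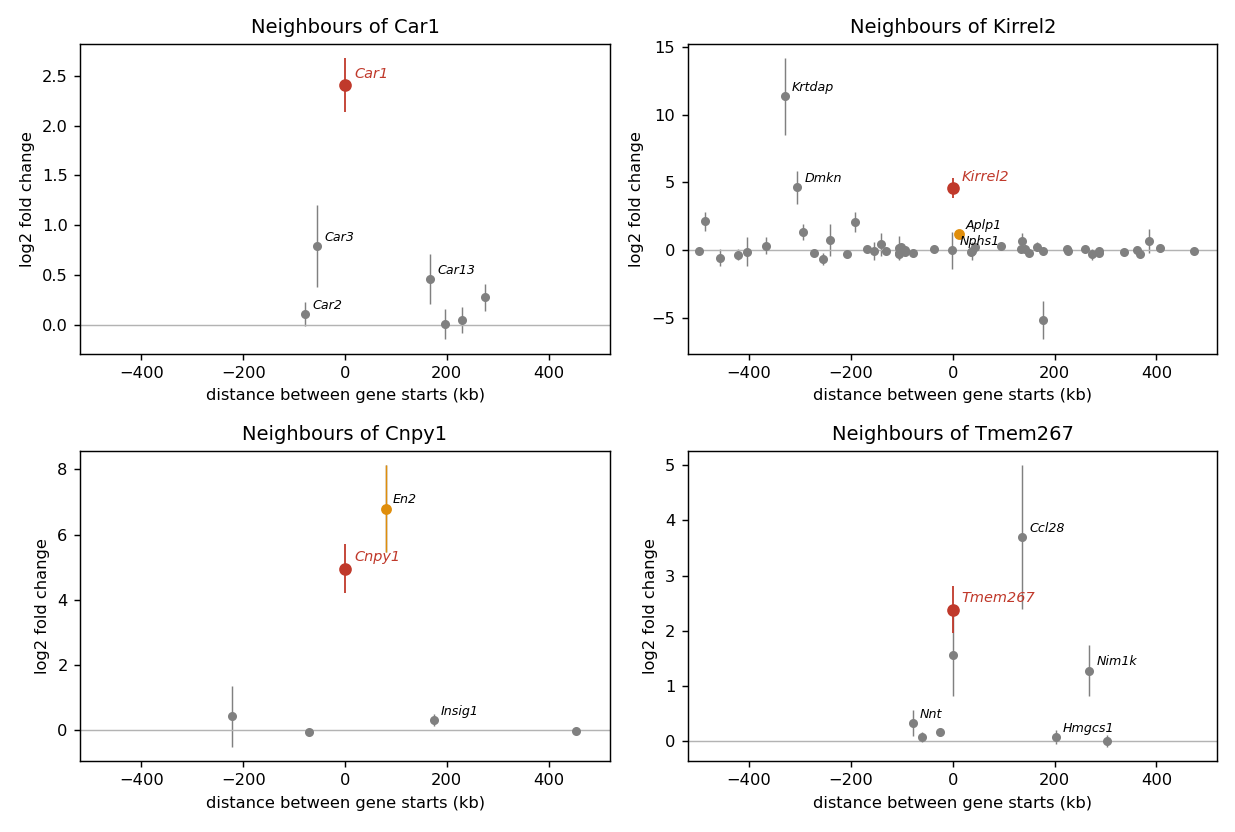
Fitted log2 fold changes with standard errors (y axis) of genes by the distance of their start from that of Car1, Kirrel2, Cnpy1 or Tmem267 (x axis, kb), with the DEG in red, other calls at the standard criterion in orange and the rest in gray. Car1 stands at 2.41 above its family neighbors and Kirrel2 at 4.57 above Aplp1. Left of Kirrel2, the gray points of Krtdap and Dmkn are squamous genes raised in 1 liver, and those of Hamp (2.14) and Rbm42 (2.10) are not squamous genes.

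The genome around the edited gene was examined in the same way. Within 10 Mb of Daxx on chromosome 17, 385 genes were tested, 2 passed the standard criterion (Ccdc78 and H2-M5), and the median log2 fold change was 0. Calls at the standard criterion were spread over 18 of the 20 chromosomes with tested genes, with 7 on chromosome 5 (0.666% of its genes) and 4 on chromosome X (0.687%).

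On the marker lists of liver and blood cell types no gene passed. None of 18 Kupffer cell and macrophage genes passed, with a median of -0.04 and summed levels of 42934 to 48437 in mutant and 47098 to 53407 in wild-type livers. The sum overlapped between genotypes but was lower than that of the littermate in each of the 4 litters, while 16 of them were lower in S226A liver, where 5.54% of all genes tested were. None of 19 neutrophil genes passed, with a median of 0.15 and 18 above 0, while 17 were higher in S226A liver. Their sum was 145363 to 163430 in mutant and 126209 to 154443 in wild-type livers, and the mutant was above its littermate in each litter. The same held for the sum of the T and NK cell list, at 685 to 869 against 476 to 720. The B lineage list of 16 genes had a median of -0.00383, the list of 12 T and NK cell genes 0.50, that of 8 megakaryocyte genes 0.19, that of 9 endothelial genes -0.03 and that of 12 stellate, portal and mesothelial genes -0.03, each with 0 members passing. At an unadjusted p below 0.05, 1 Kupffer gene and 1 T and NK cell gene were lower and none of the other genes of these 7 lists.

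Genes of other tissues were found at unequal levels among the livers. The squamous epithelium list had 28 genes tested, 23 of them higher at an unadjusted p below 0.05 and none past an adjusted p of 0.05 (1 with the litter block). Its summed level was 27483 in the Y130A liver of litter 2848 and 107 to 461 in the other 7 livers. Krt13, a keratin of the mouth and esophagus lining, had 8482, 3.00, 0 and 0 in the mutants and 33.1, 122, 6.15 and 8.22 in the wild types, and Krt5, a keratin of basal cells, had 823, 0.999, 1.05 and 3.85 and 0, 3.92, 0 and 7.19. The list median of 4.89 became -0.45 without that liver. Skeletal muscle genes summed to 499 to 2059 in mutant and 549 to 1174 in wild-type livers, and stomach, gut and pancreas genes to 537 to 1000.4 and 743 to 1295. No member of either list passed. At an unadjusted p below 0.05, where 4.85% of all genes tested were higher and 4.37% lower, 4 muscle genes were higher and 2 lower of 16. At the same level 6 of the 11 stomach, gut and pancreas genes tested were lower. None of these 11 had a log2 fold change above 0, the median was -1.56 (-1.50 without the Y130A liver of litter 2848), and the sum was lower in the mutant in 3 of 4 litters. Of 35 higher genes of the standard criterion, 11 had their highest mutant value in the squamous-positive liver, and 27 of the 46 calls passed again without it. Among those lost, beside the ones given with the gene, adjusted p-values without that liver were 0.0671 for Nwd2, 0.0509 for Magee1, 0.0508 for Srpk2 and 0.0511 for Gm45844 among the higher genes. Among the lower genes they were 0.0511 for Snph and for Duxbl1, 0.0793 for 6430531B16Rik, 0.0684 for Togaram2 and 0.0991 for Mme.

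**Figure D5:**
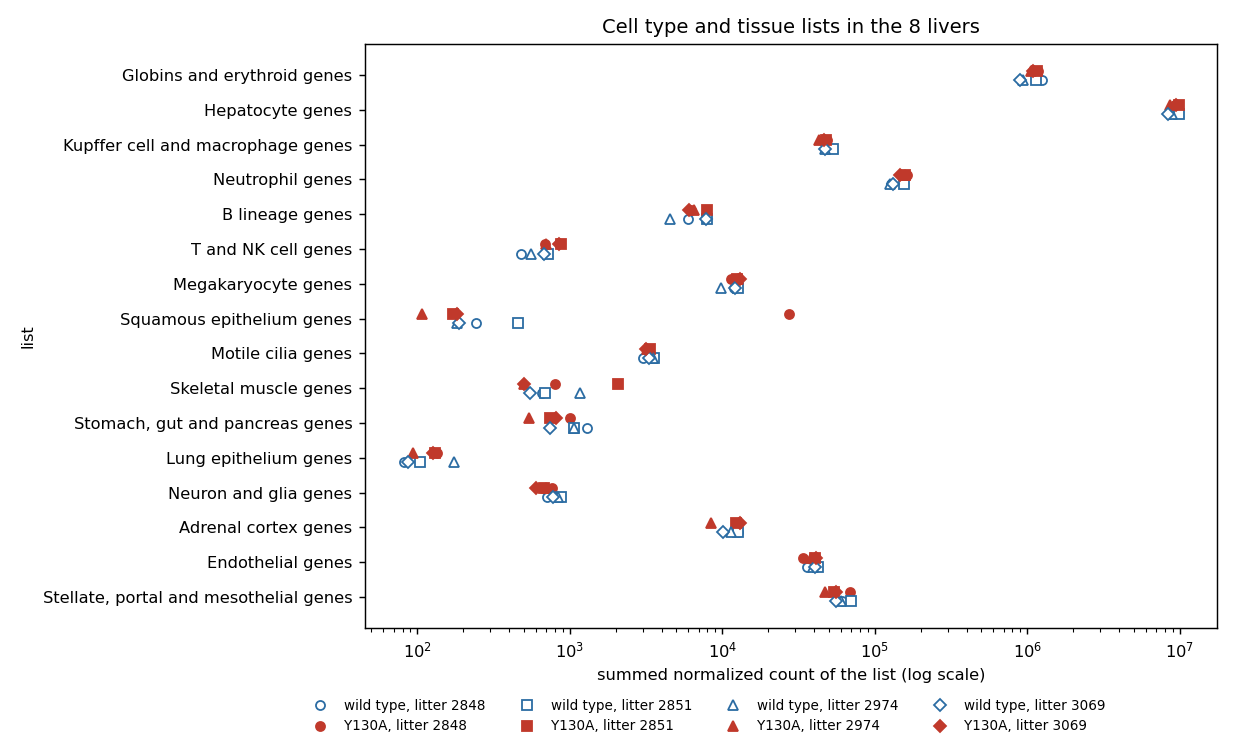
Summed normalized counts (x axis, log scale) of 16 cell type and tissue lists (y axis) in each liver, filled red for Y130A and open blue for wild type, with 1 symbol per litter. The genotypes overlap on each list, and the squamous epithelium list stands at 27483 in the Y130A liver of litter 2848 against at most 461 in the other 7.

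The remaining gene lists held few or no calls. Of 17 Wnt ligands tested Wnt7b was the 1 that passed, with a list median of 0.63, which became 0.10 without the Y130A liver of litter 2848. None of 19 imprinted genes passed (4 were lower at an unadjusted p below 0.05), with a median of -0.07. Among the 4, Snrpn, which encodes a splicing protein, had a log2 fold change of -0.88 and an adjusted p of 0.0806, which was 0.0434 without the Y130A liver of litter 2848. None of 10 germline genes tested passed (3 were higher at an unadjusted p below 0.05), with a median of 0.63. Lung epithelium genes (7 tested, median 0.40) and adrenal cortex genes (4 tested, median 0.21) had 0 members past an adjusted p of 0.05 and 0 at an unadjusted p below 0.05.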

How the data were processed

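RNA-seq counts of 47 libraries were used as deposited by the authors, who aligned reads to GRCm38.p6 with STAR 2.6.0b and summed them per gene with STAR on GENCODE M19. The submitters' processing notes also name FastQC 0.11.5, Trim Galore 0.6.5 and DESeq2. The strand setting is not given in the sources used here. Of 20456 genes listed, 20424 matched GENCODE M21, and 20387 of these are protein coding. Genes were filtered with filterByExpr (minimum count 10, minimum total 15), scaled by TMM and tested with edgeR 4.0.16 (R 4.3.3) quasi-likelihood F tests, with 1 coefficient per tissue and genotype, Benjamini-Hochberg adjustment, and contrasts of contrasts for differences between alleles and tissues. DESeq2 1.42.0 was an alternative. The edgeR script was tested on simulated data, in which libraries were independent and each gene had the same spread in all tissues. Genes with low liver counts were not changed in that simulation, so it does not bear on their recovery. Means and SDs are over the 4 livers of a genotype. The p-values of the main fit rest on a spread per gene estimated over all 47 libraries, without a litter term. That spread includes lung and brain as well as liver, and libraries of the same embryo were treated as separate.

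Litter numbers in the labels pair the livers. Over 12657 genes with a mean above 50 counts, littermates' deviations from their group means correlated at 0.37, 0.27, 0.21 and 0.16, where the highest of the 12 other pairs was 0.26. Over all 16892 genes tested they were 0.13, 0.02, 0.05 and 0.05, with 0.10 the highest of the other pairs. No replicate pair agreed within sampling noise (lowest chi-square per degree of freedom 15.7). Genes were named by a fixed rule: Daxx and its partners, the study's 11 shared genes, all DEGs, the largest and smallest standard calls with 1 sign in all litters, and list members that passed, with further genes named after their values were seen. The members, lists and comparisons were chosen with earlier results of these data known. Fold bounds use a floor of 3 reads per library and, like the interval given, cover counting error only.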

Additional observations from a re-analysis of the deposited data

Results flagged for a closer look

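Of 90 groups of 4 livers examined (Daxx, each DEG and each list sum, by genotype), 5 had 1 liver whose gap to the nearest other, divided by the range of the group, was above Dixon's 95% critical value. Chance marks about 1 in 20 such groups, which is near this number. The ratio was 0.997 for the squamous epithelium sum of the Y130A liver of litter 2848, 0.874 for Daxx in the same liver, where it was the highest, 1 for Cnpy1 in the wild-type liver of litter 2848, 0.926 for Gria4 in the wild-type liver of litter 2851, and 0.843 for the adrenal cortex sum in the Y130A liver of litter 2974, the lowest of its group at 8488.

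The change of a DEG in Y130A liver differed from that in another comparison, by the adjusted p of the difference itself, in the following cases. Against S226A liver these were Nat14 (0.000492), Sgcd (0.0111) and Zc4h2 (0.03). Against Y130A lung they were Atp1b3 (9.02e-05), Aplp1 (0.0367), Adam22 (0.0374), Nat14 (0.0374), Csmd3 (0.0495) and Zc4h2 (0.0495). Against Y130A brain they were Atp1b3 (7.16e-07), Aplp1 (0.00292), Gria4 (0.00292), Cnpy1 (0.0191), Adam22 (0.0261), Pcdh11x (0.0261), Nat14 (0.0301) and Zc4h2 (0.0368). In each case the log2 fold change was the larger in Y130A liver, for which these genes were chosen.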

How the results depend on the processing

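The number of calls moved with the model, the libraries and the tool. There were 13 DEGs and 46 standard calls, against 34 and 98 with litter within tissue as replicate block, 12 and 59 with that block and without Y130A replicate 1, 4 and 8 with the 8 livers and the block, 2 and 5 with the 8 livers alone, and 3 and 8 with 16 livers. DESeq2 gave 27 standard calls on 8 livers and 29 on 7. Leaving out 1 liver gave 9 to 16 DEGs and 26 to 75 standard calls. The 3 DEGs that differed from S226A liver became 14 with the block, 1 with 16 livers, 0 with the block and without Y130A replicate 1 (litter 2848), 1 without both livers of litter 2848, and 1 to 5 with 1 liver left out. The log2 fold change of Daxx, 0.02, was -0.04 without Y130A replicate 1, -0.03 to 0.08 with another liver left out (lowest without wild-type replicate 4, of litter 2848), -0.09 without the former and with the block, -0.09 without both, and -0.04 by DESeq2 on 7 livers.

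The squamous epithelium median of 4.89 was -0.45 without Y130A replicate 1, up to 5.84 without another liver, -0.01 without it and with the block, -0.04 without both livers of litter 2848, -1.37 by DESeq2 on 7 livers, 1.60 with the 8 livers alone, 0.73 with these and the block, and 1.16 by DESeq2 with the block. Of the other 30 lists, 11 had a median that moved by more than the SD of their litter medians in at least 1 alternative (51 of 570 medians in all). That of the Wnt ligands moved from 0.63 to between -0.19 and 1.15, that of the GABA-A subunits from 0.50 to between 0.00 and 1.32, and that of neuron and glia genes from 0 to as low as -0.29. For the 46 calls, over 19 alternatives, no gene reversed where it was tested, while 336 of 874 values lost the standard criterion, 470 kept it and 68 had no adjusted p in that fit. The calls named in the report that the litter block changed are given there. The fits without both livers of litter 2848 and DESeq2 on 7 livers were chosen after seeing the data. Genes under about 3 reads per library have no usable fold at these depths.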

Other observations

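Several liver genes passed the stringent criteria in an alternative fit alone, and were named after their values were seen. Ugt3a2, a glycosyltransferase gene of drug and bile acid metabolism, had 230.3, 497, 547 and 236 normalized counts in the mutants and 77.03, 180.4, 84.1 and 134 in the wild types. Every mutant lay above every wild type, and the adjusted p was 0.118 by edgeR on all libraries and 0.00084 by DESeq2 on the 8 livers. Cyp2j5, a P450 of hepatocytes, had 1976, 3679.8, 4299 and 2858 in the mutants and 538, 1502, 1139 and 2253 in the wild types. Each mutant was above its littermate, with overlap between litters, at an adjusted p of 0.134, and 0.00888 with the litter block. Hamp, which encodes the iron hormone hepcidin and lies 486 kb from Kirrel2, had 7.85, 160, 469 and 63.5 in the mutants and 37.6, 49.4, 36.9 and 32.9 in the wild types. It was higher in 3 of 4 litters and lower in litter 2848 (adjusted p = 0.212), and the fit in which it passed was DESeq2 on the 7 livers without that mutant.

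A pair of HMG-box genes that the litter block added were of another kind. Sox2, a factor of neural and foregut progenitors, had 24.4, 0, 0 and 0 in the mutants and no read in the wild types. Sox21 likewise had 20.9, 0, 0 and 0. Both were found in the squamous-positive liver alone.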
